A study of Mus musculus with 8 samples.

Results

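The complement and coagulation genes of the liver were followed in newborn mice that lack glycerol kinase. The set was chosen from a list of 37 genes, and 34 of them had a probe set, a group of short probes for 1 transcript region, paired with that gene alone; each gene was read through its brightest probe set over the 8 arrays. All 34 passed the signal filter, among 10848 named genes tested in all. C3 and Cpb2 had no probe set paired with them, and the 1 probe set of C4b is shared with a second gene, so these 3 were not analysed here. Each of 4 wild-type and 4 knockout livers came from a separate male C57BL/6J pup on day of life 3 and was hybridised to 1 Affymetrix Mouse 430 2.0 array. The wild-type pups were age-matched littermates. The knockout disrupts Gk, the X-linked gene of the enzyme that phosphorylates glycerol, and no probe set was paired with Gk, so the genotype labels were not checked by its level. The design text states that knockout pups of this age are hypoglycemic and acidotic, which the comparison therefore carries along.

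Complement and coagulation are cascades of plasma proteases, and hepatocytes make most of their proteins and release them as inactive precursors. In complement, lectins or antibodies on a surface start the cleavage of C4, C2 and C3, and the terminal components then assemble a pore in the target membrane. In coagulation, the contact system and the vitamin K-dependent factors lead to thrombin, which turns fibrinogen into fibrin, while antithrombin and protein C with its cofactor protein S hold the cascade back and plasmin dissolves the clot.

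The arrays differed apart from genotype. Wild type 4 carried a female signal against its label: Xist stood at 10506 there and at 196 to 396 on the other 7 arrays. For the transferrin receptor control, the 3'/5' ratio was 6.50 to 6.72 on replicates 1 and 2 of both groups and 4.21 to 4.83 on replicates 3 and 4, so these pairs of arrays are also shown apart; the labels name no batch. The 3'/5' ratio of the pyruvate carboxylase control, which reads RNA integrity or labelling, was 7.03 on knockout 1 and 4.93 on knockout 2 against 2.06 to 3.46 on the other 6. All 13 hepatocyte markers measured were bright enough to be tested, with albumin between 19537 and 26756. In whole liver, fewer cells of a type and less RNA per cell cannot be told apart.

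None of the 34 genes passed the test (limma, Benjamini-Hochberg adjusted p under 0.05 over all 20395 probe sets tested), where 0.299% of all probe sets did. At an unadjusted p under 0.05 there were 6, or 17.6%, against 14.4% of all probe sets. Masp1, C8a and C8b had lower signals in the knockout, and C6, Pros1 and F9 higher ones, 3 genes in each direction against 7.32% of all probe sets lower and 7.12% higher. For 5 genes (14.7%) the knockout arrays were all above or all below the wild-type ones, against 9.32% of all probe sets: 3 were higher (4.47% of all) and 2 lower (4.85%). By either count the share stood little above the background. The background counts every probe set tested, whereas each gene of the set counts once, through its brightest. The 34 log2 fold changes, knockout minus wild type, ran from -0.86 to 0.82, with a median of 0.09 beside -0.029 over all probe sets, and 24 lay above 0, where 45.8% of all probe sets did. The median was 0.01 without wild type 1, -0.004 without knockout 1, 0.18 without wild type 3 and 0.16 without knockout 4, and 0.02 with quantile normalization and 0.18 with median centring. Without wild type 4, too, none of the 34 was called. Signals of different probe sets depend on their probes, so a brighter probe set does not mean more transcript than that of another gene. For 23 of the genes the value lay within 0.2 of 0, and for 18 the 95% interval stayed within a 1.5-fold difference either way.

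**Figure D1:**
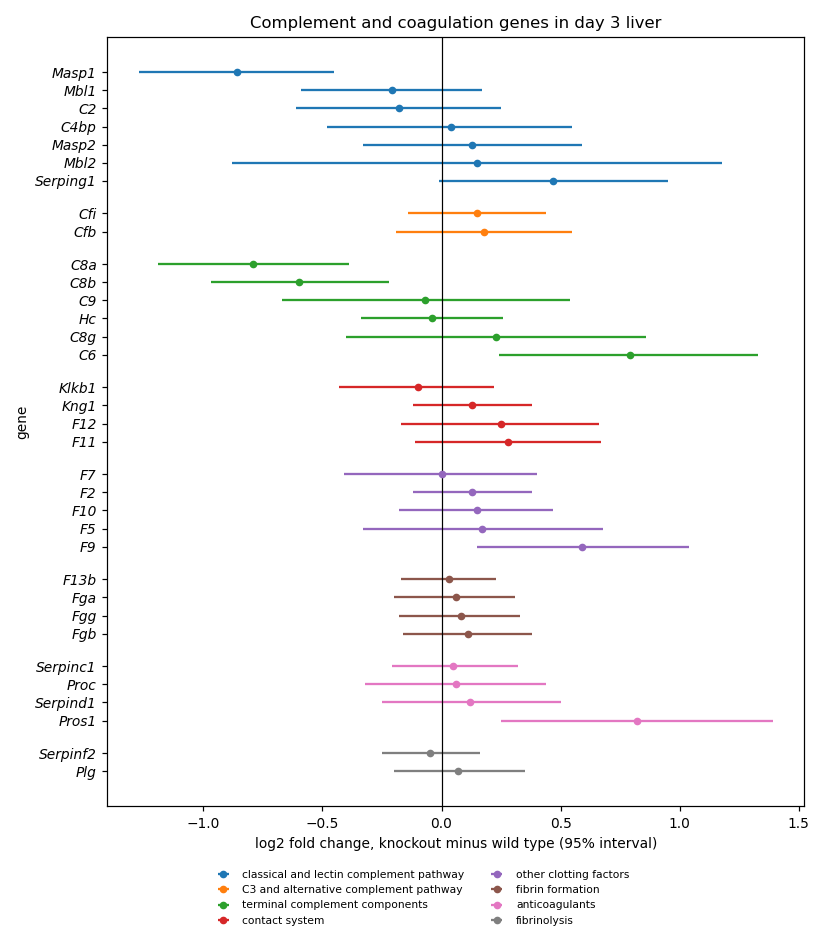
Log2 fold change (knockout minus wild type, x axis) of each of the 34 genes (y axis), coloured by role, with limma's 95% interval from 4 against 4 arrays. Masp1 (-0.86), C8a (-0.79) and C8b (-0.60) lie to the left of 0 and C6 (0.79), Pros1 (0.82) and F9 (0.59) to the right, while the intervals of the other 28 genes cross 0.

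In the classical and lectin pathways, 7 of 8 listed genes were measured, and 4 lay above 0 and 3 below. Masp1 encodes a protease that circulates with mannose-binding lectin and starts the lectin pathway. Its brightest probe set had signals of 1720, 2668, 2873 and 3063 in wild type 1 to 4 and of 1217, 1401, 1403 and 1522 in knockout 1 to 4. Every knockout array lay below every wild-type array, with wild type 1 the closest. The means were 2581 ± 596 and 1386 ± 126 (SD, n = 4), a wild-type level 1.86 times as high, and the log2 fold change was -0.86 ± 0.19 (SE; limma adjusted p = 0.0839). The adjusted p ran from 0.0303 to 0.266 over 20 other settings with this probe set, and was under 0.05 in 2 of them. It was 0.0431 with the replicate pair as a term, where 0.902% of all probe sets were called. Without wild type 1 it was 0.0303, where 65 of the 20395 probe sets were called. With the pair term and without wild type 4 it was 0.0736.

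Masp1 has 4 further probe sets, and none of the 3 tested had an unadjusted p under 0.05; the probe sets were not tested against each other. The second brightest stood at 902 ± 149 in wild type and 949 ± 86.1 in the knockout (SD, n = 4), a log2 fold change of 0.08 with an interval from -0.26 to 0.42. The next ones stood at -0.24 (interval -0.62 to 0.14) and 0.08 (-0.25 to 0.41), and the faintest, at 94.6 ± 23.5 and 59.2 ± 37.9, was below the signal minimum and was not tested. The gene is known to give several proteins by alternative splicing, MASP-1, MASP-3 and MAp44, and the annotation used here does not say which of their transcripts each probe set reads.

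**Figure D2:**
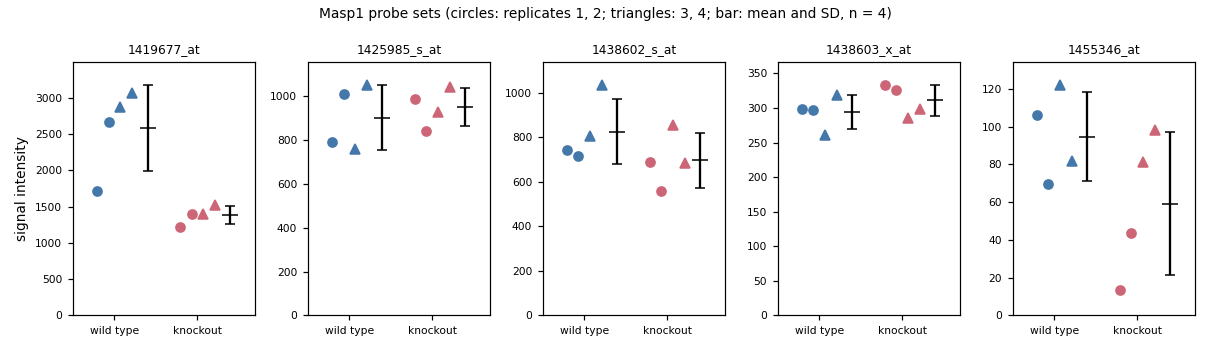
Signal intensity (y axis, linear from 0) of the 5 Masp1 probe sets in wild type and knockout, 1 point per array (circles replicates 1 and 2, triangles replicates 3 and 4), with the mean and SD of 4 arrays. The groups part only in the brightest probe set on the left, 2581 against 1386.

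The other measured genes of these pathways did not differ beyond the spread between arrays. Serping1, which encodes C1 inhibitor and restrains both C1 and the contact system, had the largest value among them. Its signals were 5375, 7756, 8250 and 10439 in the wild-type livers and 14892, 10671, 9916 and 8346 in the knockouts. The groups overlapped, since wild type 4 lay above knockout 3 and 4, and the log2 fold change was 0.47 ± 0.22 (SE; interval -0.01 to 0.95; limma adjusted p = 0.358). It was 0.29 without wild type 1, 0.31 without knockout 1 and 0.61 without wild type 4. The unadjusted limma p of Serping1 was under 0.05 in some other settings, without wild type 4 or without knockout 4 among them. Without knockout 1 that p was 0.148, and without wild type 4 the limma adjusted p was 0.281. Mbl1 and Mbl2 encode the mannose-binding lectins, which recognise sugars on microbes. Mbl2 varied more than any other gene of the set, with a standard error of 0.47: its signals were 3163, 3349, 5347 and 10705 in the wild-type livers and 14054, 4182, 4203 and 3762 in the knockouts. Knockout 1 and wild type 4 stood far above the other 6 arrays, 1 in each group, and the log2 fold change was 0.15 (interval -0.88 to 1.18). Mbl1 did not follow it, with 2363 on wild type 4 and 2802 on knockout 1, within the 2299 to 3964 of all arrays, and a value of -0.21 ± 0.17. C2, the protease that joins C4b, stood at -0.18, C4bp, which inhibits C4b, at 0.04, and Masp2, the protease that cleaves C4 and C2, at 0.13. Of their further probe sets, the other 2 of C2 stood at -0.14 and -0.21, and the other of Masp2 at -0.13. C2 was read through a probe set of the type that can share probes with other transcripts, and C2 and Cfb are neighbours on chromosome 17.

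Of the alternative pathway, Cfb, the protease of its C3 convertase, and Cfi, which cleaves C3b and C4b, were measured. Cfi had the brighter signal, 12654, 14663, 16424 and 16230 in the wild-type livers and 20781, 15451, 15468 and 15027 in the knockouts, where knockout 1 alone stood above the wild-type arrays (log2 fold change 0.15 ± 0.13 SE; limma adjusted p = 0.649). Cfb had signals of 5609, 8241, 8581 and 9448 in the wild-type livers and 10366, 9105, 8333 and 7827 in the knockouts. These groups overlapped as well, at 0.18 ± 0.17 (SE; limma adjusted p = 0.669).

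The terminal components, which form the membrane attack complex, held 3 of the 6 genes with an unadjusted p under 0.05, in both directions. C8 is built of 3 chains from separate genes. C8a, its alpha chain, had signals of 3038, 3469, 4538 and 3732 in the wild-type livers and 1622, 2738, 2089 and 2125 in the knockouts. No knockout array reached the lowest wild-type array. The means were 3695 ± 631 and 2144 ± 458 (SD, n = 4), 1.72 times as high in wild type (log2 fold change -0.79 ± 0.18 SE; limma adjusted p = 0.0985). C8b, the beta chain, stood at 1785, 2533, 2340 and 2556 in the wild-type livers and 1256, 1848, 1356 and 1621 in the knockouts, and only knockout 2 stood above wild type 1, the lowest of its group. Its log2 fold change was -0.60 ± 0.17 (SE; limma adjusted p = 0.155). Both values kept their sign in all 20 other settings, from -0.96 to -0.62 for C8a and from -0.72 to -0.48 for C8b, and in no setting was either gene called. C8g is the gamma chain. Its signals were 3920, 4513, 4131 and 3032 in the wild-type livers and 7797, 5510, 3520 and 2760 in the knockouts, at 0.23 ± 0.28 (SE; interval -0.40 to 0.86).

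C8a and C8b are neighbours on chromosome 4, with no protein-coding gene between them, and C8g lies on chromosome 2. The 250 bases before each start are given 5′ to 3′ on the gene's strand, because both neighbours had negative fold changes at an unadjusted p under 0.05; the sequences are RefSeq's (GRCm38.p6) and capitals mark the letters GTTAAT, part of the site of HNF1, a factor of hepatocyte genes, on either strand.
C8a, chr4:104876399-104876648, minus strand: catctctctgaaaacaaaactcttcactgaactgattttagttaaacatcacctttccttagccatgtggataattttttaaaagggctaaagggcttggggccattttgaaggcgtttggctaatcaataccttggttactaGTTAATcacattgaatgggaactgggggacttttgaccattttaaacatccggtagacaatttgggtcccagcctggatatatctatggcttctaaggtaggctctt
C8b, chr4:104766067-104766316, plus strand: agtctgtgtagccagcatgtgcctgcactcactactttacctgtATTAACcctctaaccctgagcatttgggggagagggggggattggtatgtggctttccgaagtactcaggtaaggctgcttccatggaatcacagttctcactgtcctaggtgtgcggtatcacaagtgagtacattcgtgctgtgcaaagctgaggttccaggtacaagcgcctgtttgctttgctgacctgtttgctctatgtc
The match lies 107 to 102 bases before the start in C8a and 206 to 201 bases before it in C8b. It was found in 7 of the 26 genes of the set with a promoter sequence (26.9%) and in 6.43% of all 32851 promoters, as letters only and not as a shown site. The letters searched for HNF4 (CAAAGTCCA) were in none of the 26 and in 0.384% of all promoters, and those for C/EBP factors (TTGCNNAA) in 6 of the 26 (23.1%) and 9.56% of all. The set was counted by gene, with a match in any of its promoters, and the background by promoter, so the shares differ in unit.

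C6, which binds C5b to begin the pore, had signals of 197, 349, 327 and 523 in the wild-type livers and 674, 533, 575 and 552 in the knockouts. The groups did not overlap, though wild type 4 came close to knockout 2. The means were 349 ± 134 and 584 ± 62.9 (SD, n = 4), 1.67 times as high in the knockout (log2 fold change 0.79 ± 0.25 SE; limma adjusted p = 0.188), and without wild type 4 the limma adjusted p was 0.115. Hc, which encodes C5 and had the brightest signal of this group, stood at 9045, 10558, 11635 and 11887 in the wild-type livers and 12951, 10576, 9070 and 9509 in the knockouts, which overlapped throughout (-0.04 ± 0.14 SE). C9, which polymerises into the pore, stood at -0.07 ± 0.27.

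**Figure D3:**
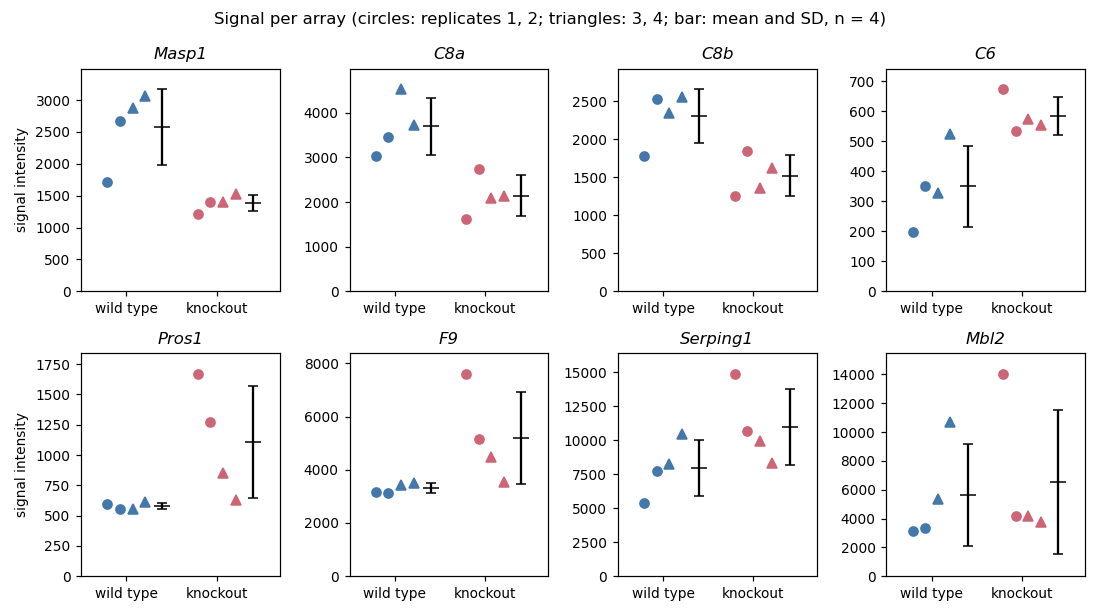
Signal intensity (y axis, linear from 0) of 8 genes on each array (circles replicates 1 and 2, triangles replicates 3 and 4), with the mean and SD of 4 arrays per group. The groups do not overlap for Masp1, C8a, C6, Pros1 and F9; for Mbl2, wild type 4 (10705) and knockout 1 (14054) stand far above the rest.

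Among the clotting factors F9 had the largest value. Factor IX is the vitamin K-dependent protease that is lacking in hemophilia B, and its gene lies on the X chromosome. Its signals were 3184, 3139, 3422 and 3509 in the wild-type livers and 7615, 5147, 4464 and 3558 in the knockouts. The wild-type arrays lay close together, wild type 4 with its female signal among them, and the knockout arrays spread from just above them, in knockout 4, to a far higher level in knockout 1. The means were 3313 ± 180 and 5196 ± 1739 (SD, n = 4), 1.57 times as high in the knockout (log2 fold change 0.59 ± 0.20 SE; limma adjusted p = 0.221), and without knockout 1 the value was 0.39. The other 4 did not differ beyond their spread. F2, prothrombin, had the brightest signal of the group, 17405, 17281, 20968 and 20555 in the wild-type livers and 24712, 19442, 20659 and 18832 in the knockouts (0.13 ± 0.11 SE). Apart from knockout 1 its groups covered the same range. F10 stood at 0.15 ± 0.15, F5, the cofactor of factor Xa, at 0.17 ± 0.23, and F7, which pairs with tissue factor, had a value of 0 to 2 decimals with an interval from -0.41 to 0.40. F7 and F10 are neighbours on chromosome 8.

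The contact system begins the intrinsic pathway on charged surfaces. F11 had the largest value and the smallest p of its 4 genes, with signals of 1946, 3209, 3453 and 3095 in the wild-type livers and 3353, 3494, 3691 and 3387 in the knockouts; wild type 1 stood apart from the other 7 arrays (0.28 ± 0.18 SE; limma adjusted p = 0.501), and without it the value was 0.10. F12 stood at 0.25 ± 0.19 and Klkb1, plasma prekallikrein and the neighbour of F11 on chromosome 8, at -0.10 ± 0.15. Kng1, kininogen, which carries prekallikrein and releases bradykinin, was the brightest of them, at 21684, 23054, 27704 and 27589 in the wild-type livers and 31200, 24997, 27631 and 25421 in the knockouts (0.13 ± 0.11 SE). The groups overlapped, with knockout 1 the highest.

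Fibrinogen is built of 3 chains, and its genes Fga, Fgb and Fgg lie side by side on chromosome 3. Fga had signals of 21960, 23285, 27662 and 29378 in the wild-type livers and 30206, 24236, 26935 and 24820 in the knockouts, a log2 fold change of 0.06 ± 0.11 (SE; interval -0.20 to 0.31). Fgb had 21087, 23277, 27648 and 28743 in the wild-type livers and 31803, 25870, 26584 and 24312 in the knockouts, 0.11 ± 0.12 (interval -0.16 to 0.38). Fgg, at 0.08 ± 0.12, ran from 19620 to 24642 and from 21045 to 27736. All 3 were highest on knockout 1 and lowest on wild type 1, and the groups overlapped for each. F13b, the carrier subunit of the fibrin cross-linking factor, had the narrowest spread, 9373 to 9820 in wild type and 9183 to 10058 in the knockout (0.03 ± 0.09 SE). These chains are among 8 genes with a signal of at least 15000 on every array (Kng1, F2, Fga, Fgb, Fgg, Serpinc1, Plg and Serpinf2), whose log2 fold changes ran from -0.05 to 0.13; the highest signal of any probe set was 29266 to 38679 per array, and whether differences are compressed so near the top of the scale was not tested.

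The 250 bases before the 3 fibrinogen starts are given because the chains of 1 protein come from these neighbours, with the same HNF1 letters and the C/EBP letters TTGCNNAA in capitals.
Fga, chr3:83025903-83026152, plus strand: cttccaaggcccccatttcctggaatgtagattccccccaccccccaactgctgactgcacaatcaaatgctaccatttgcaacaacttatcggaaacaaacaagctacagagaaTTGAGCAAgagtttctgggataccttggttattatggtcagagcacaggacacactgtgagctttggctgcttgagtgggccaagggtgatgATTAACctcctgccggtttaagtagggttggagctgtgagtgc
Fgb, chr3:83049864-83050113, minus strand: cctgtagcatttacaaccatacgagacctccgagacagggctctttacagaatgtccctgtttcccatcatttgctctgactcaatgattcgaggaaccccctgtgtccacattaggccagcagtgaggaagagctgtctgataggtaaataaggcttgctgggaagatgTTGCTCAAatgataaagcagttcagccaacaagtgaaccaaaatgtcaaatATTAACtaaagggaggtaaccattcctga
Fgg, chr3:83007474-83007723, plus strand: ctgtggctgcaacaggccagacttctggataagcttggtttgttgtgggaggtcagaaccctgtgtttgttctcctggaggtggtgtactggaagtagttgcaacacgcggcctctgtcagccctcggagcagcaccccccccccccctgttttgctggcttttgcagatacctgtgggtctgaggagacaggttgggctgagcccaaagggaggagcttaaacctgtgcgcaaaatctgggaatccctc
Fga and Fgb hold 1 match of each kind, the HNF1 letters 43 to 38 and 29 to 24 bases before the start and the C/EBP letters 135 to 128 and 80 to 73 bases before it. In Fgg neither set of letters was found in this window.

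Of the anticoagulants, Pros1 had the highest fold change of the whole set. Protein S is the cofactor with which activated protein C inactivates factors Va and VIIIa. Its signals were 596, 557, 558 and 609 in the wild-type livers and 1671, 1271, 849 and 630 in the knockouts. The wild-type arrays lay within a narrow band, and the knockout arrays ran from just above it, in knockout 4, to a far higher level in knockout 1. The means were 580 ± 26.5 and 1105 ± 461 (SD, n = 4), 1.91 times as high in the knockout (log2 fold change 0.82 ± 0.26 SE; limma adjusted p = 0.191). The adjusted p ran from 0.0462 to 0.470 over 20 other settings, and it was under 0.05 only without knockout 4, where 1.64% of all probe sets were called. Proc, protein C itself, stood at 0.06 ± 0.17, with 6829 to 7934 in wild type and 5917 to 10666 in the knockout. Serpinc1, antithrombin, had the brightest signal of the group, 18903, 19864, 22029 and 23354 in the wild-type livers and 26897, 20163, 21330 and 19259 in the knockouts (0.05 ± 0.12 SE), and Serpind1, heparin cofactor II, stood at 0.12 ± 0.17. The groups of both overlapped. Of the fibrinolysis genes, Plg, plasminogen, had signals of 19534, 19984, 25158 and 24870 in the wild-type livers and 27720, 22145, 23556 and 20780 in the knockouts, again overlapping (0.07 ± 0.12 SE). Serpinf2, the inhibitor of plasmin, ran from 16719 to 20750 and from 16718 to 18646 (-0.05 ± 0.09 SE).

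The promoter of Pros1 is shown because its fold change was the highest of the set; it held neither the HNF1, the HNF4 nor the C/EBP letters, so nothing is in capitals.
Pros1, chr16:62854057-62854306, plus strand: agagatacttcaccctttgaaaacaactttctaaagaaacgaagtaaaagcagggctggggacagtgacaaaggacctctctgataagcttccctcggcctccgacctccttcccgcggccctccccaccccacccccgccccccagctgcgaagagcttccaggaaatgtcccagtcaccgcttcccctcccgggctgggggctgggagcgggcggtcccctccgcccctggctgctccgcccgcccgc

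The fold changes were also set side by side in the 2 pairs of replicates. For 32 of the 34 genes (94.1%) it was higher in replicates 1 and 2 than in replicates 3 and 4, against 47.4% of all probe sets tested. In replicates 1 and 2 the log2 fold change was above 0 for 29 genes (45.2% of all probe sets), at a median of 0.33, and in replicates 3 and 4 it was below 0 for 28 genes (50.1% of all), at a median of -0.15. The exceptions to the first count were Mbl1 and Klkb1. The difference was not particular to the set: all 13 hepatocyte markers were higher in the first pair too, with medians of 0.32 and -0.08. A test of the difference between the pairs (limma interaction term) called none of the 34 and 2 of all 20395 probe sets (0.00981%), with a smallest adjusted p of 0.484 in the set. Without adjustment, 14 of the 34 (41.2%) had a p under 0.05 in it, each higher in the first pair, against 9.92% of all probe sets. Pros1 stood at 1.31 in the first pair and 0.32 in the second, F9 at 0.98 and 0.20, Serping1 at 0.96 and -0.03, and Mbl2 at 1.23 and -0.93. Masp1 (-0.71 and -1.01), C8a (-0.62 and -0.96) and C8b (-0.48 and -0.72) lay below 0 in both pairs, and C6 (1.15 and 0.43) above 0 in both. Without wild type 1 the count of 32 was 27, and without knockout 1, wild type 4 or both it was 32. The median in the first pair was 0.18 without knockout 1 and 0.23 without wild type 1.

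**Figure D4:**
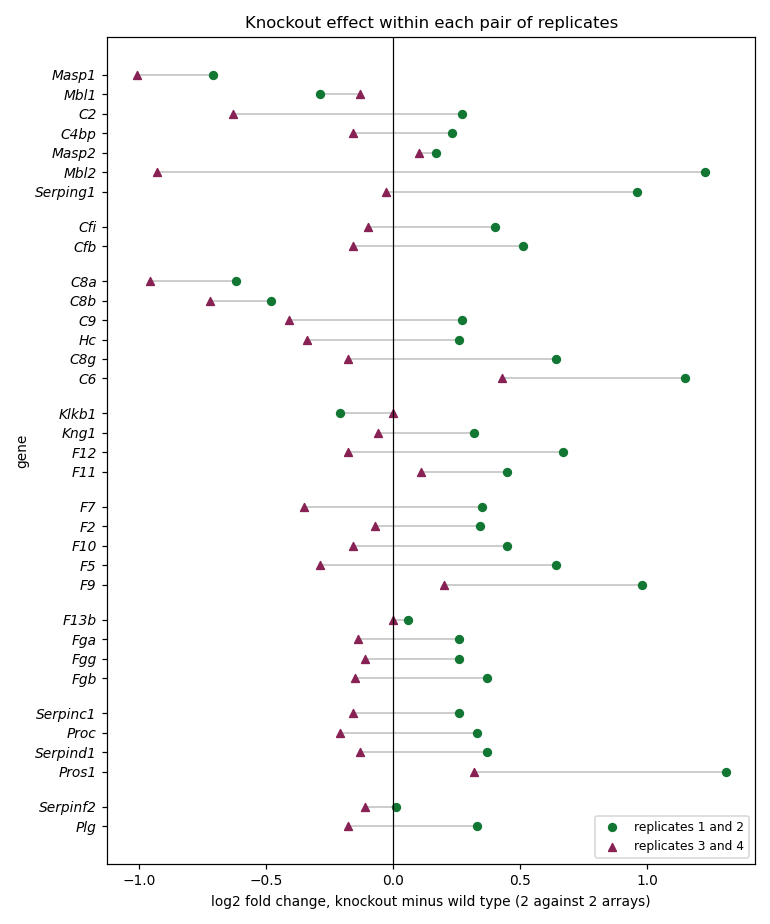
Log2 fold change (knockout minus wild type, x axis) of each of the 34 genes (y axis) within replicates 1 and 2 (green circles) and within replicates 3 and 4 (purple triangles), each from 2 against 2 arrays. The green circle lies to the right of the triangle for all genes but Mbl1 and Klkb1.

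The arrays of a genotype also differed among themselves. Knockout 1 had the highest signal of the 8 arrays for 23 of the 34 genes (67.6%), against 19.9% of all probe sets, and the highest of the 4 knockout arrays for 25 (30.3% of all). It was the lowest of the 4 for 36.6% of all probe sets. Over the whole array it had the lowest median signal, 147.0 against 150.3 to 174.6. Its highest signal was the highest of all arrays, 38679 against 29266 to 36497. Many genes of the set are bright, and the share among equally bright probe sets was not counted. On knockout 4 the set's signal was the lowest of the 4 knockout arrays for 20 genes. The share of all probe sets lowest on knockout 4 was not counted, so this count cannot be set against the background. Relative to the wild-type mean, the median of the set was 0.32 on knockout 1, 0.04 on knockout 2, 0.06 on knockout 3 and -0.07 on knockout 4, and -0.22, -0.02, 0.13 and 0.14 on wild type 1 to 4. Without knockout 1, 8 of the 34 fold changes changed sign, those of Fga, Fgg, Serpinc1 and Plg among them. Hepatocyte markers took much the same course, with medians of 0.34 on knockout 1 and -0.14 on wild type 1, and of 0.32 and -0.08 in the pairs. Of 18 acute phase genes measured 14 were tested, and Saa1, Saa2, Orm1 and Orm2 were below the signal minimum. The medians of those tested were 0.27 and -0.08 in the pairs, and none was called. Crp (0.65 ± 0.17 SE), Steap4 (0.88 ± 0.25) and Serpina3n (0.52 ± 0.16) were higher at an unadjusted p under 0.05, where 7.12% of all probe sets were. The median of the 6 erythroid markers tested ran the other way, at -0.38 and 0.14. Epb42, Klf1, Rhag and Ermap turned from below to above 0, while Alas2 (-0.04 and -0.19) and Slc4a1 (-0.07 and -0.02) did not. Of other blood and liver cells, the 8 megakaryocyte markers all lay below 0 (median -0.22; -0.29 and -0.12 in the pairs) and the 12 Kupffer cell markers had a median of 0.08 (0.37 and -0.14). The 9 stellate cell markers tested had a median of -0.27 (0.02 and -0.53), with 3 lower at an unadjusted p under 0.05. The 8 granulocyte markers had a median of -0.22 (-0.09 and -0.36), with 2 lower, beside 7.32% of all probe sets. The markers' part in the values of the set, and that of the 3'/5' ratios, was not tested.

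**Figure D5:**
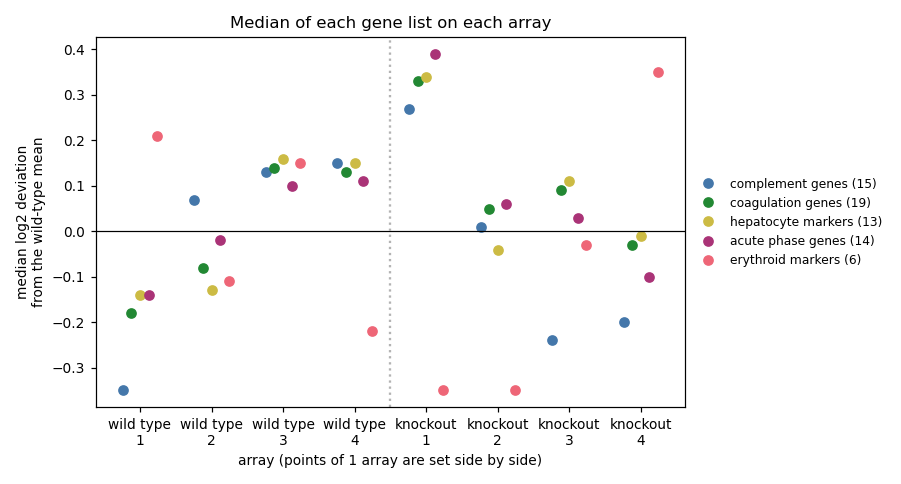
Median log2 deviation from the wild-type mean (y axis) on each array (x axis) for 5 gene lists, with the number of genes tested in brackets. The lists are the complement genes and the coagulation genes of the set, hepatocyte markers, acute phase genes and erythroid markers. All but the erythroid markers are highest on knockout 1. Their medians there are 0.27, 0.33, 0.34 and 0.39 in that order, and the erythroid markers stand at -0.35.

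Other genes of both cascades were read from 2 further lists. Of 22 other complement genes tested none was called. At an unadjusted p under 0.05, 0 were lower (7.32% of all probe sets) and 1 was higher (7.12%). That was Cd55, decay-accelerating factor, which dismantles the C3 convertase on the cell's own surface: 515, 398, 465 and 474 in the wild-type livers and 625, 659, 557 and 634 in the knockouts, with no overlap (0.41 ± 0.13 SE; limma adjusted p = 0.206). Cd93 followed at 0.45 ± 0.21 (SE; limma adjusted p = 0.358). Of 19 other coagulation and fibrinolysis genes tested none was called. At an unadjusted p under 0.05, 1 was higher (7.12% of all probe sets) and 2 were lower (7.32%).

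Anxa2 encodes annexin A2, which holds plasminogen and its activator at cell surfaces. It had signals of 4505, 4068, 3954 and 3517 in the wild-type livers and 2921, 2643, 2344 and 2442 in the knockouts, without overlap (-0.63 ± 0.13 SE; limma adjusted p = 0.0762). It stood at -0.62 and -0.64 in the pairs of replicates. With the pair as a term, where 0.902% of all probe sets were called, the limma adjusted p was 0.0401. With that term and without wild type 4 it was 0.0575. A2m, alpha-2-macroglobulin, is a broad inhibitor of proteases. Its signals were 1260, 1355, 2082 and 1634 in the wild-type livers and 900, 663, 909 and 1146 in the knockouts. These groups did not overlap either (-0.79 ± 0.20 SE, limma adjusted p = 0.12). For A2m the limma adjusted p was 0.0468 with the pair as a term, and 0.0611 with that term and without wild type 4. Thbd, thrombomodulin, the endothelial receptor that turns thrombin toward protein C, ran from 250 to 347 in wild type and from 346 to 800 in the knockout (0.79 ± 0.23 SE; limma adjusted p = 0.167). Endothelial markers had a median of -0.08 beside it, with 4 of 10 above 0 and summed signals of 10344 to 14730 in wild type and 10684 to 16980 in the knockout, and their part in the value of Thbd was not tested.

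Transcription factors of the liver were read as a list of 14, of which 12 were tested. The HNF1 genes were not analysed here, and whether the listed factors act on the genes of the set was not tested. None was called. At an unadjusted p under 0.05, 5 were higher (7.12% of all probe sets) and 0 lower (7.32%), and 10 of 12 lay above 0 (45.8% of all) at a median of 0.36, with 0.54 and 0.17 in the pairs. Cebpd, a C/EBP factor of the acute phase response, had 601, 443, 438 and 631 in the wild-type livers and 3134, 1502, 1482 and 910 in the knockouts. The groups did not overlap, and knockout 1 stood highest (1.58 ± 0.31 SE; limma adjusted p = 0.0712). With the replicate pair as a term, where 0.902% of all probe sets were called, the limma adjusted p was 0.0437. With that term and without wild type 4 it was 0.0392. Foxa3, a forkhead factor of hepatocytes, had 1993, 2421, 2157 and 2217 in the wild-type livers and 4760, 3270, 3029 and 2646 in the knockouts, without overlap (0.61 ± 0.18 SE; limma adjusted p = 0.166). Nr5a2 stood at 0.55 ± 0.19 and Hnf4a, which is also among the hepatocyte markers, at 0.73 ± 0.27 (SE; limma adjusted p = 0.222 and 0.251). Hnf4a was 14958 on knockout 1 and 5308 to 7468 on the other knockout arrays, beside 3931 to 5559 in wild type.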

How the data were processed

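Liver RNA of 4 wild-type and 4 knockout pups was measured on Affymetrix Mouse 430 2.0 arrays. The authors deposited linear signal intensities from GCOS 1.2, whose global scaling brought each array to 500, per the labels. That scaling was kept. Of 45101 probe sets, 64 controls were left out. The platform's annotation was joined by Entrez identifier to RefSeq gene symbols, so that 34945 probe sets had 1 gene, 932 more than 1 and 9160 no gene.

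Tests covered the 20395 probe sets that reached 200 on 4 or more arrays, run on log2(signal + 16) with limma 3.58.1 in R 4.3.3 (two-sided, lmFit and trended eBayes), and p-values were adjusted over all of them by the Benjamini-Hochberg method. The script was tested on simulated data. With 4 arrays a group, the 34 genes had a median standard error of 0.17, and that number limits precision. Promoters were searched on both strands over 250 bases. Python 3.11.15, pandas 2.3.3 and matplotlib 3.10.9 made the tables and figures.

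The genes and lists were chosen with earlier results of these data known. Signals on single arrays are given for genes with an unadjusted p under 0.05 or groups that do not overlap, and in each role for the gene with the smallest p, the largest fold change and the brightest signal. From other lists up to 4 genes with an unadjusted p under 0.05 are named, or the 2 with the smallest p. Alternatives were the pseudocount, filter, scaling, variance trend, probe set, replicate number as a block, replicate pair as a term, and each array or pair left out.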

Additional observations from a re-analysis of the deposited data

Results flagged for a closer look

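Of the 68 groups of 4 arrays (34 genes in each genotype), 5 (7.35%) had 1 array so far from the other 3 that the gap filled most of the group's whole range, past Dixon's critical value, where chance flags about 1 in 20. Mbl2 stood at 14054 on knockout 1 against 3762 to 4203 on the other knockout arrays. Cfi stood at 20781 on knockout 1 against 15027 to 15468. Serpind1 stood at 5920 on wild type 1 against 9438 to 10092, and Masp2 at 872 on wild type 1 against 1420 to 1526. F13b stood at 9820 on wild type 4 against 9373 to 9418 on the other wild-type arrays, the smallest of these gaps.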

How the results depend on the processing

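Of 686 single values of the 34 genes under 21 alternatives, 618 kept their direction and their side of the threshold, 3 passed it and 65 turned sign; 7 genes turned in no alternative. The 61 probe sets called became 21 with no filter, 111 with a stricter one, 18 without the trend, 184 with the replicate pair as a term and 154 with that term and without wild type 4, and 30 and 2 in replicates 1 and 2 and in 3 and 4 alone. Leaving out 1 array gave 2 to 334, the latter without knockout 4, and 65 without wild type 1. Genes of the set called were 1 with the pair as a term (Masp1), 0 to 1 leaving out 1 array (Masp1 without wild type 1, Pros1 without knockout 4) and 0 in the other alternatives run. The set's median of 0.09 was 0.33 and -0.15 in the pairs alone, -0.004 to 0.18 leaving out 1 array, 0.02 with quantile normalization and 0.18 with median centring. With the replicate number as a block, 56 probe sets and 0 of these genes were called, and the median was 0.09. Same-numbered arrays correlated at 0.218, 0.404, 0.339 and 0.0512 in their deviations from the group means, and since pairing was taken to need over 0.1 in every pair, the numbers were not used to pair animals. Wild type 3 correlated best with knockout 4 (0.374) and wild type 4 with knockout 3 (0.207).

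In replicates 1 and 2 alone C2 stood at 0.27, Hc 0.26, C9 0.27, F7 0.35 and Serpinf2 0.01. In replicates 3 and 4 alone the values were C4bp -0.16, Mbl2 -0.93, Serping1 -0.03, Cfb -0.16, Cfi -0.10, C8g -0.18, F12 -0.18, Klkb1 0.003, Kng1 -0.06, F2 -0.07, F5 -0.29, F10 -0.16, Fga -0.14, Fgb -0.15, Fgg -0.11, F13b -0.0005, Serpinc1 -0.16, Serpind1 -0.13, Proc -0.21 and Plg -0.18. Median centring gave Hc 0.04, C9 0.01, F7 0.08 and Serpinf2 0.03, and quantile normalization F13b -0.08, Serpinc1 -0.01 and Proc -0.04. The pair term without wild type 4 gave C4bp -0.11, Hc 0.03 and F7 0.09, and the second brightest probe set Masp1 0.08, Masp2 -0.13 and F10 -0.06. Leaving out 1 array, the ranges that crossed 0 were C4bp -0.14 to 0.21, Masp2 -0.06 to 0.24, Mbl2 -0.29 to 0.52, Hc -0.14 to 0.03, C8g -0.03 to 0.46, C9 -0.25 to 0.23, F5 -0.02 to 0.31, F7 -0.12 to 0.14, Fga -0.01 to 0.13, Fgg -0.004 to 0.13, Serpinc1 -0.05 to 0.11, Serpind1 -0.06 to 0.20, Proc -0.10 to 0.18, Plg -0.006 to 0.13 and Serpinf2 -0.10 to 0.005. The cause of these changes was not tested.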
